A study of Homo sapiens with 12 samples.

Results

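The contrast described here is the interaction of TNF and Senexin B in HCT116 cells, an established human colorectal carcinoma line. For each gene it is the Senexin B effect with TNF (TNF plus Senexin B against TNF) minus the Senexin B effect without TNF (Senexin B against control), on the log2 scale. The same number is the TNF effect with Senexin B minus the TNF effect without it. A positive value means that cells given both agents held more of a transcript than the separate effects, multiplied, would give. The members were taken from the sample titles, with no use of measured values: all 12 of the 12 libraries, in 4 groups of 3 biological replicates. The TNF plus Senexin B cells received 1 µM Senexin B for 1 hour before TNF at 10 ng/mL was added for 2 hours. The TNF cells had 0.1% DMSO in place of the inhibitor. The Senexin B cells received 1 µM inhibitor and no TNF, for 3 hours in all. The control cells received 0.1% DMSO for 3 hours. All 12 libraries come from this 1 line in culture, so nothing here speaks for other colon cells.

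TNF is an inflammatory cytokine whose receptor activates the kinase IKK. IKK marks the IkB inhibitors for destruction and so frees NF-kB, which switches on chemokine, survival and feedback genes. Senexin B blocks the related kinases CDK8 and CDK19, which belong to the Mediator complex. Mediator links gene-specific transcription factors to RNA polymerase II, and its kinases can help or hinder elongation at inducible genes. The interaction asks for which transcripts the inhibitor did something else in cytokine-treated cells than in untreated ones.

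Total counts ran from 5835226 to 9281176 per library, lowest in TNF replicate 1. Of 56634 gene symbols, 13084 passed a filter on low counts and were tested, with a biological coefficient of variation of 3.62%. Levels below are CPM (counts scaled to library size with TMM factors), which compare a gene between samples and not genes with each other. In cultures sequenced in bulk, fewer cells that hold a transcript and less of it per cell cannot be told apart. Of 15 colon epithelial markers, 13 were seen, with a summed level from 4268 to 5106 CPM over all libraries. VIL1 and CDX1 stood at 0 counts in all 12. Of 16 blood cell markers, 6 (CD3D, MS4A1, CD68, FCGR3A, NKG7 and HBB) were at 0 in every library, and the list summed to at most 1.91 CPM. TNF replicate 1 and control replicate 1 stood apart from their groups. Chi-square per degree of freedom over genes was 2.58 and 2.88 between TNF replicate 1 and the other two TNF libraries, against 1.252 between those. It was 2.77 and 2.92 between control replicate 1 and the other two control libraries, against 1.38 between those. Relative to the other TNF libraries, the values of TNF replicate 1 fell with the GC content of the transcript (Spearman's rho of -0.521 across genes, which are not independent replicates). In the other 11 libraries rho ran from -0.163 (control replicate 1) to 0.370 (TNF replicate 2). Each library was compared with the rest of its group. TNF replicate 1 is thus part of the reference for TNF replicate 2 and for TNF replicate 3 (0.320). The difference of Senexin B effects itself correlated with GC content across genes at rho = 0.284, and at 0.0899 without TNF replicate 1. What part GC content plays in a result was not tested, and values without these libraries or with GC-corrected offsets are given where they change a call.

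Few genes differed. The quasi-likelihood test of edgeR called 6 of 13084 genes at a Benjamini-Hochberg adjusted p under 0.05, or 0.0459%. Of these, 3 were higher (CLDN4, IRF2BPL and BMP4) and 3 lower (STC2, SDC4 and ASNS), 0.0229% each way. They encode a tight junction protein, a ubiquitin ligase, a bone morphogenetic protein, a secreted glycoprotein, a cell surface proteoglycan and an amino acid synthetase. At an unadjusted p under 0.05 there were 796 genes, or 6.08%, with 429 higher and 367 lower. All 6 differences were below 1.5-fold, from a ratio of 0.746 for STC2 to 1.42 for CLDN4. CLDN4 and STC2 were called in all 12 fits that left out 1 library, SDC4 in 7, ASNS in 6, IRF2BPL in 4 and BMP4 in 1.

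**Figure D1:**
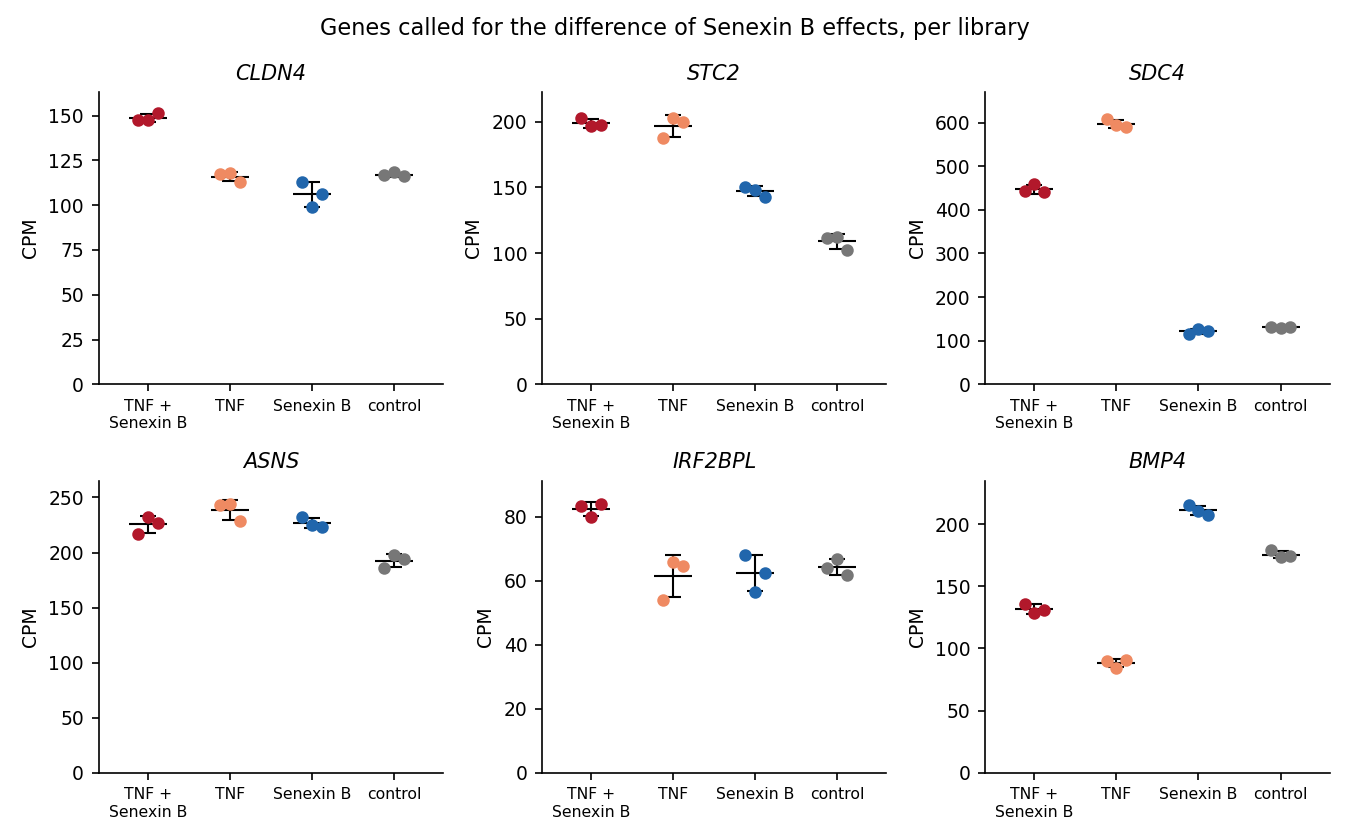
CPM of the 6 called genes in each of the 12 libraries (points), with the mean and SD of 3 libraries (bars), in TNF plus Senexin B, TNF, Senexin B and control cells. CLDN4 and IRF2BPL stand high in the cells given both agents, and STC2 and ASNS stand low in control cells.

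The stretches before the start sites of the 4 genes with the smallest p are shown so that motifs of factors named in the results can be seen in place. Each is the 250 bases before the RefSeq start site (GRCh38.p14), in the direction of transcription. Capitals mark every match, on either strand, to 4 motifs. They are the NF-kB consensus, the loose AP-1 pattern TGANTCA with any middle base, the ATF4 composite element TGATGNAAN and the cAMP response element TGACGTCA. A match is a description of the letters and not a site shown to be bound in these cells.
CLDN4 (chr7:73830746-73830995, plus strand): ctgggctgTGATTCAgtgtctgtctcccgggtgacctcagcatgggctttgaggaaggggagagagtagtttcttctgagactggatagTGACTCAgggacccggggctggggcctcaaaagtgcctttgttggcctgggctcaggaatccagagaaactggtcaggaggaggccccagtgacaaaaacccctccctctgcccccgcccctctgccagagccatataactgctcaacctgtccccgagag
STC2 (chr5:173328415-173328664, minus strand): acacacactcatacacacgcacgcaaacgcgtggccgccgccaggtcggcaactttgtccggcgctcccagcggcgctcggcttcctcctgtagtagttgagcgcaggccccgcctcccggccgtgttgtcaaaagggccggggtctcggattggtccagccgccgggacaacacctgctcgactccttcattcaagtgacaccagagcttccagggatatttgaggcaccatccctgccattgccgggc
SDC4 (chr20:45348425-45348674, minus strand): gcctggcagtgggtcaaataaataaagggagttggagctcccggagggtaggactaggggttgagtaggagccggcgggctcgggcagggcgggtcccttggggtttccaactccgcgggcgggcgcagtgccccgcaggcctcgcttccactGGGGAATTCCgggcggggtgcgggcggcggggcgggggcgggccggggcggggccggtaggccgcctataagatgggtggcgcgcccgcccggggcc
ASNS (chr7:97872409-97872658, minus strand): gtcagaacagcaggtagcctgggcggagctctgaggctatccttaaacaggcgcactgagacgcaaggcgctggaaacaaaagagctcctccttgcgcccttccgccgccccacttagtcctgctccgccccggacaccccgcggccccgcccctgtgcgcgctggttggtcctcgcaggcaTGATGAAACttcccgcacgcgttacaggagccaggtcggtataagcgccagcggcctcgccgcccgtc

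The CLDN4 stretch matched the loose AP-1 pattern at 242 and at 161 bases before the start site, where the matched letters were TGATTCA and TGACTCA. SDC4 held GGGGAATTCC, a match to the NF-kB consensus, and ASNS held TGATGAAAC, a match to the ATF4 composite element. The STC2 stretch held none of the 4 motifs in this window, whose start site is 1089 bases from the GENCODE 29 start of the gene. Among 34788 RefSeq stretches of 250 bases, the AP-1 pattern TGANTCA was found in 6.59% and the NF-kB consensus in 9.95%. The ATF4 composite element was found in 3.14% and the cAMP response element in 1.64%. In the other two genes, IRF2BPL held the cAMP response element and BMP4 none of them, in a window whose start site is 3711 bases from the GENCODE 29 start.

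CLDN4 encodes claudin-4, a membrane protein of epithelial tight junctions, and gave the smallest p of the contrast. It stood at 148, 148 and 151 CPM in the TNF plus Senexin B libraries and at 117, 118 and 113 CPM in the TNF libraries. In the Senexin B libraries it stood at 113, 99.2 and 106 CPM, against 117, 118 and 116 CPM in control. The 3 libraries with both agents lay above the other 9. TNF and control libraries overlapped, and the Senexin B libraries lay below both. The Senexin B effect on CLDN4 was 0.36 ± 0.05 (log2 ± SE) with TNF and -0.14 ± 0.05 without (edgeR adjusted p = 4.50e-07 and 0.134). Their difference was 0.50 ± 0.07 (95% interval 0.36 to 0.65, edgeR adjusted p = 4.41e-05). Read the other way, TNF raised CLDN4 by 0.49 ± 0.05 with Senexin B, while the TNF effect without it was -0.01 ± 0.05 (edgeR adjusted p = 1.19e-11 and 0.905). Without single libraries the difference ran from 0.46 to 0.55, with a largest adjusted p of 0.00208. The gene lies at chr7:73799542-73832693 (GRCh38, GENCODE 29), and the RefSeq start site used above is 31454 bases inside that span.

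STC2 encodes stanniocalcin-2, a secreted glycoprotein that the stress factor ATF4 is known to induce. It stood at 203, 197 and 197 CPM with both agents and at 187.6, 203 and 199.96 CPM with TNF. It stood at 150.3, 148 and 143 CPM with Senexin B, against 112, 112 and 102 CPM in control. The groups with TNF overlapped each other, while every Senexin B library lay above every control library. The Senexin B effect on STC2 was thus 0.01 ± 0.05 with TNF and 0.43 ± 0.05 without (edgeR adjusted p = 0.921 and 3.04e-09). The difference was -0.42 ± 0.07 (95% interval -0.56 to -0.29, edgeR adjusted p = 0.000375). TNF raised STC2 by 0.44 ± 0.05 with Senexin B and by 0.86 ± 0.05 without it. Without single libraries the difference ran from -0.45 to -0.38, with a largest adjusted p of 0.0145. The gene lies at chr5:173314713-173329503.

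ASNS encodes asparagine synthetase, a classic ATF4 target, and its stretch printed above holds the ATF4 motif. It stood at 217, 232 and 227 CPM with both agents and at 244, 244 and 229 CPM with TNF. It stood at 232, 225 and 224 CPM with Senexin B, against 186, 198 and 194 CPM in control. All 9 treated libraries lay above the 3 control libraries. The Senexin B effect was -0.08 ± 0.04 with TNF and 0.24 ± 0.04 without (edgeR adjusted p = 0.313 and 0.000229), a difference of -0.32 ± 0.06 (95% interval -0.44 to -0.19, edgeR adjusted p = 0.0117). The TNF effect was -0.01 ± 0.04 with Senexin B and 0.31 ± 0.04 without (edgeR adjusted p = 0.968 and 2.38e-07). Leaving out TNF plus Senexin B replicate 1 or 3, control replicate 1, or any 1 Senexin B library ended the call, with a largest adjusted p of 0.143. The gene lies at chr7:97852118-97872542.

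STC2 and ASNS were the called members of the list for ATF4 and the unfolded protein response. ATF4 is a transcription factor that cells make when amino acids run short or proteins misfold, and it drives genes of amino acid supply. Of 38 tested members of that list, 2 were called lower (STC2 and ASNS) and 0 higher, and 36 did not pass. Over all tested genes 0.0229% were called each way. At an unadjusted p under 0.05 there were 9 lower and 1 higher, 26.3% of the list, beside 6.08% of all tested genes. The median was -0.03, against 0.0033 over all tested genes. Without TNF replicate 1 there were 15, of which 13 were lower. With GC-corrected offsets there were 11, all lower. The list was written with an earlier result on the same libraries known, so the share is a description and no independent evidence.

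SESN2, which encodes the leucine sensor sestrin-2, averaged 43.6 ± 3.22 CPM with both agents, 38.3 ± 4.27 with TNF, 42.0 ± 2.4 with Senexin B and 28.6 ± 1.93 in control (SD, n = 3 each). Its difference of effects was -0.37 ± 0.12 (edgeR adjusted p = 0.628). The mitochondrial folate enzyme MTHFD2 stood at -0.17 ± 0.05 (0.607), the serine synthesis enzyme PSAT1 at -0.18 ± 0.06 (0.699) and the stress factor ATF3 at -0.28 ± 0.12 (0.765). SESN2, MTHFD2 and PSAT1 were chosen after their small p in this contrast was seen. Senexin B raised these 3 without TNF (edgeR adjusted p = 4.23e-06, 0.000537 and 1.24e-05), and with TNF it was not called (0.208, 0.900 and 0.273). For ATF3 the Senexin B effect was called neither with TNF (-0.14, 0.299) nor without it (0.14, 0.553).

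SDC4 encodes syndecan-4, a heparan sulfate proteoglycan of focal adhesions and a known NF-kB target. It stood at 442, 459 and 440.0 CPM with both agents and at 607, 594 and 590.4 CPM with TNF. It stood at 115, 126 and 122 CPM with Senexin B, against 132, 129 and 132 CPM in control. Every library with both agents lay below every TNF library. Senexin B lowered SDC4 by 0.42 with TNF (-0.42 ± 0.04, edgeR adjusted p = 1.35e-12), and without TNF the effect was -0.11 ± 0.05 (0.222). The difference was -0.31 ± 0.06 (95% interval -0.43 to -0.19, edgeR adjusted p = 0.0117). TNF raised SDC4 by 1.88 ± 0.04 with Senexin B and by 2.19 ± 0.04 without it, so most of the induction was there with the inhibitor. Leaving out TNF plus Senexin B replicate 1 or 3, Senexin B replicate 2 or 3, or control replicate 2 ended the call, with a largest adjusted p of 0.205. The gene lies at chr20:45325288-45348424.

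IRF2BPL encodes a nuclear protein with a RING domain that acts as a ubiquitin ligase. It stood at 83.3, 80.1 and 84.2 CPM with both agents and at 53.9, 66.0 and 64.7 CPM with TNF. It stood at 68.2, 56.7 and 62.5 CPM with Senexin B, against 64.0, 66.9 and 61.9 CPM in control. As for CLDN4, the 3 libraries with both agents lay above the other 9. The Senexin B effect was 0.41 ± 0.07 with TNF and -0.04 ± 0.07 without (edgeR adjusted p = 1.04e-05 and 0.851). The difference was 0.45 ± 0.09 (95% interval 0.26 to 0.64, edgeR adjusted p = 0.0316). The lowest TNF value was that of replicate 1, the library with the GC trend, and this transcript is GC-rich at 62.8%. Without TNF replicate 1 the difference was 0.37 (edgeR adjusted p = 0.0824). Leaving out any 1 TNF plus Senexin B library, Senexin B replicate 2 or 3, or control replicate 1 or 2 also ended the call, with a largest adjusted p of 0.449. DESeq2 did not call it (adjusted p = 0.408), nor did edgeR without robust shrinkage (0.0797). With GC-corrected offsets the edgeR adjusted p was 0.0369.

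BMP4 encodes bone morphogenetic protein 4, a ligand of the TGF-beta superfamily, and moved in every simple comparison. It stood at 136, 129 and 131 CPM with both agents and at 89.6, 84.5 and 90.5 CPM with TNF. It stood at 215, 210.3 and 207 CPM with Senexin B, against 179, 173 and 174 CPM in control. None of the 4 groups overlapped. Senexin B raised BMP4 by 0.58 ± 0.05 with TNF and by 0.27 ± 0.04 without (edgeR adjusted p = 4.83e-13 and 4.06e-05). The difference was 0.32 ± 0.07 (95% interval 0.18 to 0.45, edgeR adjusted p = 0.0446). TNF lowered BMP4 both with Senexin B (-0.68 ± 0.05) and without it (-0.99 ± 0.05). The call held in the fit without TNF replicate 1 (0.0119) and was lost in the other 11 fits that left out a library, with a largest adjusted p of 0.348. It was also lost with DESeq2 (0.151), limma-voom (0.0543) and edgeR without robust shrinkage (0.0797). On the CPM scale the difference of effects was 8.18 CPM.

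**Figure D2:**
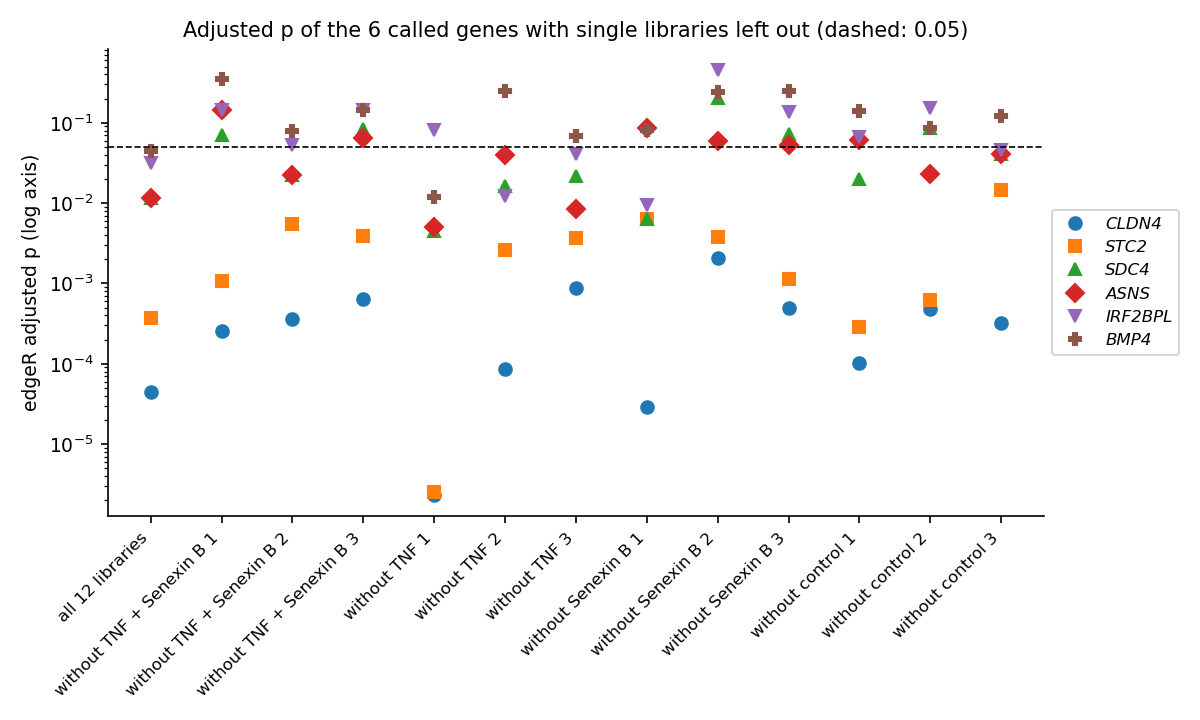
Adjusted p of edgeR's quasi-likelihood test (log axis) for the 6 called genes, in the fit with all 12 libraries and in 12 fits that each left out 1. CLDN4 and STC2 stay under 0.05 (dashed) throughout, and BMP4 passes only with all libraries and without TNF replicate 1.

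Among the remaining genes, NR2F6, an orphan nuclear receptor gene, was next in rank at 0.39 ± 0.09 (edgeR adjusted p = 0.146), and JADE2, which encodes a ubiquitin ligase with PHD fingers, followed at 0.36 ± 0.09 (0.224). NR2F6, with a GC content of 71.0%, stood at 0.23 with GC-corrected offsets (adjusted p = 0.631). It was called without TNF replicate 2 (0.0178) and with no filter on low counts (0.0427). Beyond the 6, no gene had an adjusted p under 0.1. JUNB, an AP-1 subunit gene, was chosen after its small unadjusted p among the immediate early genes was seen. It stood at 166, 154 and 157 CPM with both agents, at 117, 164 and 141 CPM with TNF, at 41.4, 40.7 and 40.1 CPM with Senexin B and at 49.7, 48.9 and 52.6 CPM in control. Its difference of 0.47 ± 0.13 was not called (edgeR adjusted p = 0.607). It was called with GC-corrected offsets (0.37, adjusted p = 0.0171) and without TNF replicate 2 (0.60, 9.16e-05), but not without TNF replicate 1 (0.37, 0.0632). JUNB was also called with no filter on low counts (0.47, 0.000539). The same held with the replicate number as a block and GC-corrected offsets (0.37, 0.00493).

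**Figure D3:**
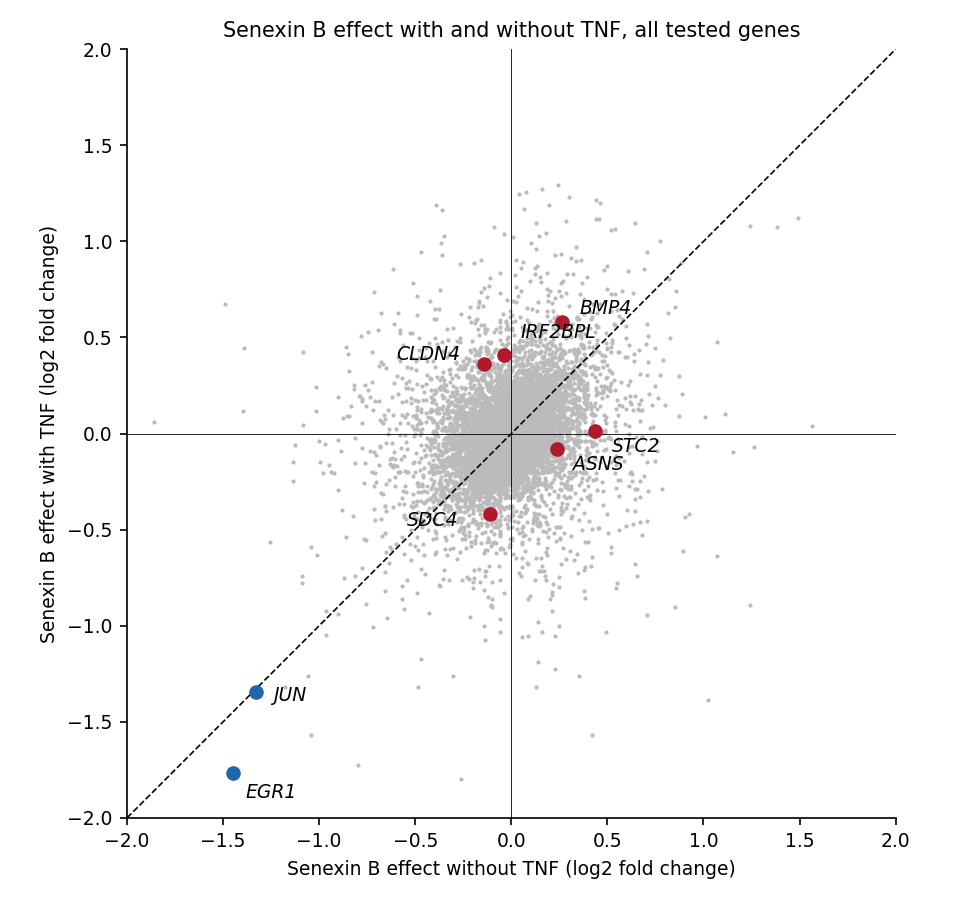
Senexin B effect with TNF (vertical) against that without TNF (horizontal), both log2 fold changes, for the 13084 tested genes (2 lie outside the axes). Red points are the 6 called genes, which lie off the dashed line of equal effects. JUN and EGR1 (blue) are below -1 on both axes, JUN at -0.02 from that line and EGR1 at -0.32.

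JUN, EGR1 and CDKN1A, which Senexin B lowered both with and without TNF, gave no call for a difference between its effects. JUN, an AP-1 subunit gene, averaged 27.5 ± 1.4 CPM with both agents and 69.8 ± 3.39 with TNF, and 11.2 ± 1.03 with Senexin B against 28.0 ± 1.41 in control (SD, n = 3 each). Senexin B lowered JUN by 1.35 ± 0.08 with TNF and by 1.33 ± 0.11 without, so the difference was -0.02 ± 0.13 (edgeR adjusted p = 0.991). The 95% interval of that difference, -0.28 to 0.24, leaves out a 1.5-fold change either way. For EGR1, a zinc finger transcription factor gene, the effects were -1.77 ± 0.11 with TNF and -1.45 ± 0.10 without. Its difference of -0.32 ± 0.14 was not called (95% interval -0.62 to -0.02, edgeR adjusted p = 0.794). CDKN1A, the p21 gene, which restrains the cell cycle, was lower with Senexin B by 0.55 with TNF (-0.55 ± 0.05) and by 0.77 without (-0.77 ± 0.05). The difference was 0.22 ± 0.07 (95% interval 0.08 to 0.36, edgeR adjusted p = 0.632). The chaperone gene HSPA1B stood at 0.12 ± 0.08, MYC at -0.11 ± 0.05 and FOS at 0.46 ± 0.32, each uncalled (edgeR adjusted p = 0.842, 0.805 and 0.848). HSPA1A is almost the same in sequence as HSPA1B, so the counts of either are uncertain.

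**Figure D4:**
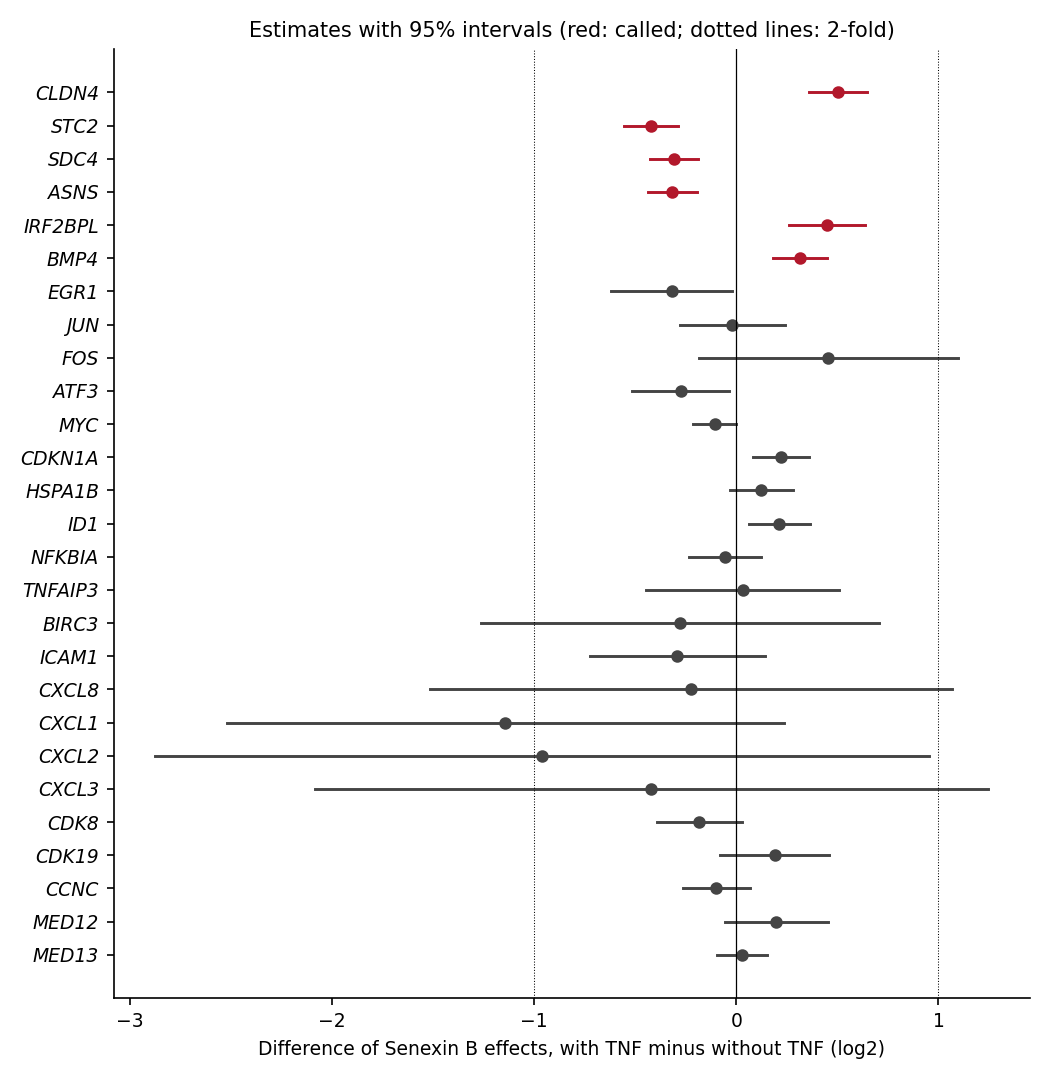
Difference of Senexin B effects, with TNF minus without TNF, on the log2 scale, with 95% intervals for the 6 called genes (red) and 21 others (grey). The intervals of CXCL1, CXCL2, CXCL3, CXCL8, BIRC3 and FOS reach past 2-fold (dotted) on at least 1 side, and those of NFKBIA and JUN do not.

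For the genes that TNF switched on from near silence, this contrast could say little. CXCL8, a neutrophil chemokine gene, had 349, 392 and 379 counts with both agents and 493, 594 and 589 with TNF. It had 2, 4 and 3 counts with Senexin B and 1, 6 and 6 in control. Senexin B lowered CXCL8 with TNF (-0.79 ± 0.07, edgeR adjusted p = 1.86e-12), and without TNF the effect was -0.57 ± 0.64 (0.736). The difference was -0.22 ± 0.65, with an interval from -1.52 to 1.07 (edgeR adjusted p = 0.978). The corresponding values were -1.14 ± 0.69 for CXCL1, -0.96 ± 0.96 for CXCL2 and -0.42 ± 0.83 for CXCL3 (edgeR adjusted p = 0.834, 0.903 and 0.949). CXCL1, CXCL2 and CXCL3 resemble each other in sequence, so how counting assigned their reads is uncertain. CCL20, a chemokine gene, and TNFRSF9, which encodes the receptor 4-1BB, had 0 counts in all 3 Senexin B libraries, so no difference of log effects is given. IL1A did not pass the filter. On the CPM scale CXCL8 fell by 32.7 more with Senexin B in TNF cells than in untreated cells, where it averaged 0.350 and 0.503 CPM with Senexin B and in control.

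Some induced genes with a measurable baseline were better resolved, such as NFKBIA, but BIRC3 was not resolved within 2-fold. NFKBIA, which encodes the inhibitor IkB-alpha, was lowered by Senexin B with TNF (-0.21 ± 0.04, edgeR adjusted p = 0.000628), and without TNF the effect was -0.15 ± 0.08 (0.384). The difference was -0.06 ± 0.09, with an interval from -0.23 to 0.12 (edgeR adjusted p = 0.938). TNFAIP3, which encodes the deubiquitinase A20, stood at 0.03 ± 0.24, the adhesion molecule gene ICAM1 at -0.29 ± 0.22 and the inhibitor of apoptosis gene BIRC3 at -0.28 ± 0.45 (edgeR adjusted p = 0.991, 0.859 and 0.939). Their 95% intervals were -0.45 to 0.51, -0.73 to 0.14 and -1.27 to 0.71, in the same order. Of 45 tested NF-kB target genes, 1 was called lower (SDC4), 0 higher and 44 did not pass, at a median of -0.01. Over all tested genes 0.0229% were called each way. At an unadjusted p under 0.05 there were 3 lower and 3 higher, 13.3%, beside 6.08% of all tested genes. Without TNF replicate 1 there were 5 lower and 1 higher, and with GC-corrected offsets 8 lower and 2 higher. The 3 higher members were BCL3, an atypical IkB gene, at 0.34 ± 0.17, CFLAR, which encodes the caspase-8 regulator c-FLIP, at 0.23 ± 0.10, and TNFRSF9, whose value rests on 0 counts with Senexin B against 1, 2 and 2 in control. The lower members were SDC4, PLAU, which encodes urokinase, at -0.24 ± 0.08, and CD83, an immune surface protein gene, at -0.36 ± 0.13 (edgeR adjusted p = 0.632 and 0.741 for PLAU and CD83). Of 10 chemokine and cytokine genes and 18 NF-kB feedback inhibitors, 0 were called, and 0 and 1 had an unadjusted p under 0.05.

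By the mean TNF effect over cells with and without Senexin B, 99 genes rose at least 2-fold (edgeR adjusted p under 0.05). Of these, 1 was called lower for the difference of Senexin B effects (SDC4) and 0 higher, beside 0.0229% of all tested genes each way. The median was 0.02. The count called lower was 0 in the fits without the single libraries listed above for SDC4. At an unadjusted p under 0.05 there were 8 lower and 10 higher, together 18.2%. That stands beside 6.08% of all tested genes, with 2.8% lower and 3.28% higher. Without TNF replicate 1 the counts were 8 and 9, and without control replicate 1 too they were 7 and 5. With GC-corrected offsets they were 13 lower and 8 higher. For 63 of the 99 genes the 95% interval lay within 2-fold either way, a smaller share than the 86.2% of all tested genes. Of the 837 genes lower by the mean TNF effect, 90 had an unadjusted p under 0.05, or 10.8% beside 6.08% of all tested genes, and 83 of those were higher. The set had a median GC content of 58.8%, against 50% over all tested genes. Without TNF replicate 1 the counts were 65 and 60, or 7.77% beside 5.35% of all tested genes. Without control replicate 1 too they were 56 and 49, or 6.69% beside 5.53%. With GC-corrected offsets they were 59 and 49, or 7.05% beside 6.08%. Of the 1027 genes higher by the mean TNF effect, 101 had an unadjusted p under 0.05, or 9.83%, with 41 higher and 60 lower, and their median GC content was 45.6%. TNF replicate 1 enters both the mean TNF effect and the difference of Senexin B effects, so these sets are not independent of it.

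Immediate early genes, which cells switch on within minutes of a signal, gave 0 calls among 51 tested (0.0459% of all genes were called), at a median of 0.01. At an unadjusted p under 0.05 there were 8 higher and 5 lower, 25.5% of the list, beside 6.08% of all tested genes. They went both ways: IER5L, an immediate early response gene, stood at 0.55 ± 0.14, the phosphatase gene DUSP4 at 0.20 ± 0.06 and SRF at 0.22 ± 0.08, against -0.32 for EGR1 and -0.28 for ATF3 (edgeR adjusted p = 0.462, 0.728 and 0.741 for the first 3). The count was 14 without TNF replicate 1 and 14 with GC-corrected offsets, then with 6 higher and 8 lower. IER5L, with a GC content of 65.0%, stood at 0.40 without TNF replicate 1 (edgeR adjusted p = 0.397). It was called without TNF replicate 2 (0.66, 0.0358) and with no filter on low counts (0.54, 0.00556).

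Among target genes of developmental signals BMP4 was the 1 call. Of 18 tested TGF-beta and BMP target genes, 1 was called higher and 0 lower, at a median of 0.03 (0.0459% of all tested genes were called). At an unadjusted p under 0.05 there were 3 higher and 0 lower, 16.7% beside 6.08% of all tested genes. ID1, an inhibitor of differentiation that BMP signals induce, averaged 100.6 ± 5.06 CPM with both agents, 62.9 ± 1.74 with TNF, 165 ± 5.49 with Senexin B and 120.2 ± 2.78 in control. Its difference was 0.21 ± 0.08 (edgeR adjusted p = 0.741), and SMAD6, which encodes an inhibitor of BMP signalling, stood at 0.78 ± 0.36 (0.785). On the CPM scale the sign for ID1 was the other way, with a difference of effects of -7.51 CPM. Of 22 Wnt/beta-catenin target genes 0 were called, at a median of 0.05, and 4 were higher and 2 lower at an unadjusted p under 0.05, 27.3% beside 6.08% of all tested genes. SOX4 was at 0.25 ± 0.07, the Notch ligand gene JAG1 at 0.24 ± 0.08, RNF43, an inhibitor of Wnt receptors, at 0.26 ± 0.09 and the Wnt antagonist DKK1 at -0.17 ± 0.05 (edgeR adjusted p = 0.607, 0.657, 0.741 and 0.607). Of 24 target genes of SRF and YAP 0 were called, at a median of 0.11, which was 0.06 without both control replicate 1 and TNF replicate 1. At an unadjusted p under 0.05 there were 5 higher and 0 lower, 20.8% beside 6.08% of all tested genes. With GC-corrected offsets there were 5 higher and 3 lower. Examples are the matrix protein gene THBS1 at 0.24 ± 0.09 and the adhesion protein gene VCL at 0.15 ± 0.06 (edgeR adjusted p = 0.741 and 0.743).

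**Figure D5:**
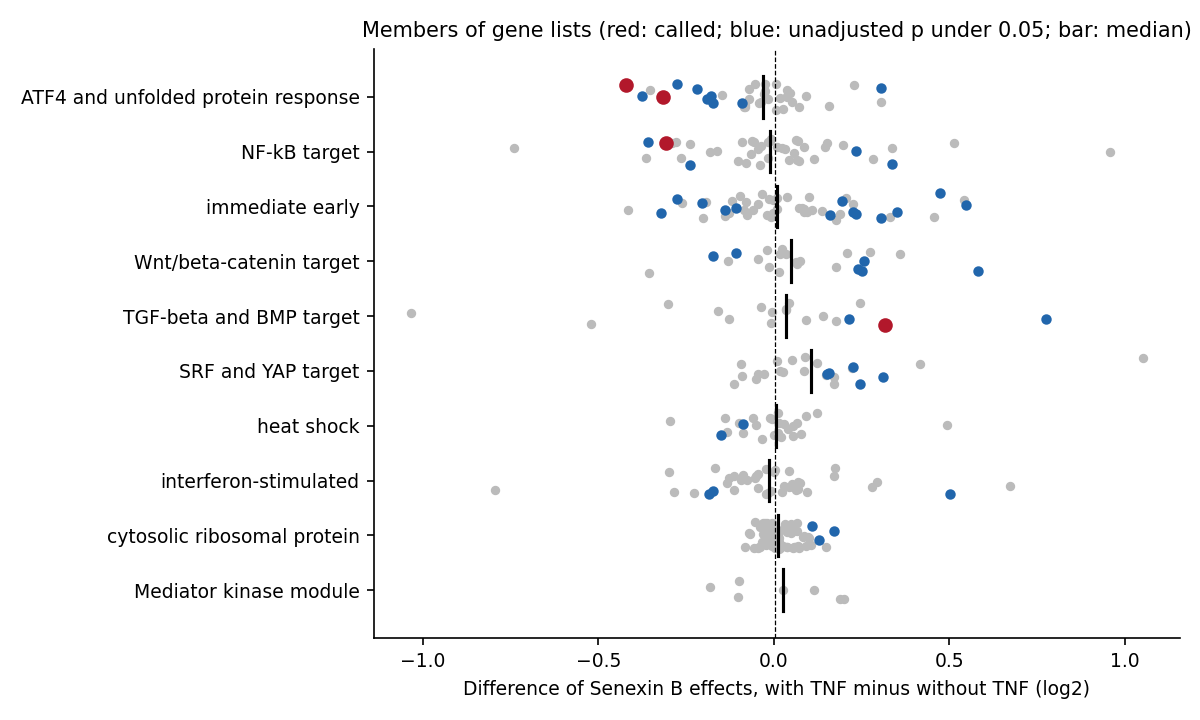
Difference of Senexin B effects (log2) for the tested members of 10 gene lists, with the list medians (bars) and the median of all tested genes (dashed). CCL20 and TNFRSF9 are left out for want of counts. Members of the ATF4 and unfolded protein response list with an unadjusted p under 0.05 lie mostly below 0, and cytosolic ribosomal protein genes lie close to 0.

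Of 74 cytosolic ribosomal protein genes 0 were called, with differences from -0.08 to 0.17. Heat shock genes (26 tested), interferon-stimulated genes (42), p53 target genes (33) and cholesterol synthesis genes (28) had 0 calls each. Their shares at an unadjusted p under 0.05 were 7.69%, 7.14%, 6.06% and 10.7%, beside 6.08% of all tested genes. The remaining lists also had 0 calls, other than CLDN4 among the colon epithelial markers. Transcripts of the drug's targets and their partners gave no call: CDK8 stood at -0.18 ± 0.11, CDK19 at 0.19 ± 0.14, cyclin C gene CCNC at -0.10 ± 0.08, MED12 at 0.20 ± 0.13 and MED13 at 0.03 ± 0.06 (edgeR adjusted p = 0.816, 0.848, 0.877, 0.842 and 0.960). The intervals of all 7 genes of the Mediator kinase module lay within 2-fold either way.

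The median standard error over tested genes was 0.13 on the log2 scale. The 95% interval lay within 2-fold either way for 11282 genes and within 1.5-fold for 9358 genes, or 71.5%. A gene that was not called is therefore not shown to respond alike with and without TNF.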

How the data were processed

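RNA of 12 HCT116 cultures was sequenced (4 groups of 3; Illumina TruSeq RNA kit, per the labels' protocols). What the authors deposited is 1 table of raw counts by gene symbol, not normalized. STAR 2.4, SAMtools 1.2, Subread 1.4.6, featureCounts and GRCh38 (hg38) are named per the submitters' processing notes. The annotation release, strand setting and treatment of multi-mapping reads are not given in the sources used here, so overlapping and near-identical genes are uncertain. Columns were matched through the number in each sample description.

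A model with 1 coefficient per group was fitted to all 12 libraries in edgeR 4.0.16 under R 4.3.3 (glmQLFit, robust). Genes passed filterByExpr, and TMM gave the scaling. The contrast was tested by F-test, and genes under a Benjamini-Hochberg adjusted p of 0.05 were called. Standard errors are Wald errors scaled by the posterior quasi-dispersion, and 95% intervals use the moderated degrees of freedom. CPM means carry the SD over 3 libraries. The p-values cover the spread among these cultures of 1 line. DESeq2 1.42.0 and limma 3.58.1 were alternatives. GC-corrected offsets removed a lowess curve (span 0.3) of each library's log deviation on transcript GC content, known for 12223 of 13084 tested genes (93.4%) from GENCODE 29.

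The pipeline was tested on simulated counts. The 27 gene lists (803 of 810 entries found in the table) and the contrast were chosen with earlier results of these data known. Named genes were the up to 15 largest differences each way among called genes reaching 1 CPM in a group (6 in all), those called in every leave-one-out fit, up to 4 called members per list, and 24 fixed genes. Up to 4 members of several lists with the smallest unadjusted p, the next genes in rank, PSAT1 and TNFRSF9 were added after their values were seen. The labels state no batch shared by libraries of the same number, so no block entered the main fit. Same-numbered libraries correlated weakly in their deviations, yet 11 of 12 libraries correlated best with their own number. Fits with the replicate number as a block are therefore given as alternatives.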

Additional observations from a re-analysis of the deposited data

Results flagged for a closer look

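The Senexin B effect with TNF differed from that without TNF for 6 genes by the test of the difference itself, edgeR's quasi-likelihood test at an adjusted p under 0.05. They are CLDN4, STC2, SDC4, ASNS, IRF2BPL and BMP4, and CLDN4 and STC2 were called in each of 12 fits that left out 1 library.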

How the results depend on the processing

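The 6 calls, 3 higher and 3 lower, were also made with RLE size factors and with a stricter filter. Without single libraries 2 to 9 genes were called (1 to 6 higher, 1 to 3 lower), and the count of TNF-raised genes called lower was 0 to 1. The number of genes called in either direction was 2 without TNF plus Senexin B replicate 1 or 3 or Senexin B replicate 2 or 3. It was 3 without control replicate 1 or 2, and 9 without TNF replicate 2, of which 5 were among the 6. With no filter on low counts 10 genes were called, 7 of them higher. At an adjusted p under 0.01 there were 2 genes, 1 higher and 1 lower, and 0 TNF-raised genes called lower. DESeq2 called 4 genes (1 higher), as did edgeR without robust shrinkage (1 higher). The cause was not tested. With the replicate number as a block 6 genes were called, all among the 6. With the block and GC-corrected offsets 8 were called, 5 of them higher. Of 18 pairs of same-numbered libraries 1 correlated above 0.1 in its deviations (range -0.0123 to 0.103). Pairs with different numbers ran from -0.0754 to 0.0462, and 11 of 12 libraries correlated best with their own number. The cut at 0.1 cannot show that the number has no effect. Estimates near 0 changed sign, none of them called. CXCL8 was at 0.24 and TNFAIP3 at -0.03 without both control replicate 1 and TNF replicate 1. Without single libraries CXCL8 ran from -0.51 to 0.16, TNFAIP3 from -0.16 to 0.21, JUN from -0.066 to 0.054 and MED13 from -0.018 to 0.060. Depth limits genes with a handful of counts in the groups without TNF.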

Other observations

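Values of the contrast on the log2 and on the CPM scale stand side by side here. For JUN the log2 difference was -0.02, while Senexin B removed 25.4 CPM more with TNF than without (difference of CPM differences -25.4). For EGR1 the log2 difference was -0.32 and the CPM difference 0.586, of opposite sign. For NFKBIA they were -0.06 and -37.1 CPM, and for BIRC3 -0.28 and -114 CPM. For CLDN4, STC2, ASNS, SDC4, IRF2BPL and BMP4 both scales gave the same sign, at 43.9, -36.1, -47.4, -141, 22.8 and 8.18 CPM. No test was run on the CPM scale.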
